A study of Mus musculus with 6 samples.

Results

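The genes that make and clear oxysterols, sense them through the liver X receptors (LXRs) and move cholesterol out of cells were followed in an immortalized mouse cardiac cell line with and without induction by 5-azacytidine. They were 9 of the 54532 genes in the deposited table: the oxysterol enzymes Ch25h, Cyp27a1 and Cyp7b1, the receptors Nr1h2 and Nr1h3, the efflux genes Abca1, Abcg1 and Apoe, and the uptake regulator Mylip. Each member was found in the table by its gene symbol, and each symbol occurred there 1 time. The members were chosen by their place in the pathway with the read counts of this same comparison already known, so their differences between groups are given as a description, with no test.

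RNA was sequenced from 6 libraries of C57BL/6 heart ventricle cells, 3 labelled control and 3 induced. The cells, called iECDCs here, are cardiosphere-derived cells grown from adult epicardium, and a lentiviral human telomerase (hTERT) transgene driven by the CMV promoter, with puromycin selection, keeps them dividing. Both groups carried that transgene and were taken at passage 30. Induced cells received 10 µM 5-azacytidine, an inhibitor of DNA methylation, for 3 days, and the labels then give 4 weeks in IMDM with 2% serum. The methods of the study give low-glucose DMEM and a shorter culture after the drug, and routine growth in a medium richer in serum. The medium and time in culture of the sequenced control cells were not stated, so drug, serum and time cannot be told apart. All 6 libraries came from the same line, and the labels name separate samples without saying whether they were separate cultures, so every p-value measures only the spread between these samples, which may be technical.

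Oxysterols are cholesterol molecules that carry an added hydroxyl group. Ch25h and Cyp27a1 add it at different carbons of the side chain, and Cyp7b1 hydroxylates the products further towards clearance. Oxysterols activate the LXRs, nuclear receptors that pair with retinoid X receptors and raise the transcription of genes for cholesterol efflux (Abca1, Abcg1, Apoe) and of Mylip, a ubiquitin ligase that marks lipoprotein receptors for degradation. They also hold back the SREBP pathway, which drives cholesterol synthesis and uptake.

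Because the inducing drug acts on methylation of CpG dinucleotides, the 250 bases before the start site are printed for the members with the largest negative (Ch25h) and the largest positive difference (Cyp27a1) and for Abca1, an efflux gene with a CpG-rich start. CpG dinucleotides are in capitals, sequences run 5′ to 3′ on the strand of the gene, and they were taken from RefSeq on GRCm38.p6. Methylation itself was not measured. The windows are chr19:34475149-34475398 on the minus strand for Ch25h, chr1:74713285-74713534 on the plus strand for Cyp27a1 and chr4:53159896-53160145 on the minus strand for Abca1.
Ch25h: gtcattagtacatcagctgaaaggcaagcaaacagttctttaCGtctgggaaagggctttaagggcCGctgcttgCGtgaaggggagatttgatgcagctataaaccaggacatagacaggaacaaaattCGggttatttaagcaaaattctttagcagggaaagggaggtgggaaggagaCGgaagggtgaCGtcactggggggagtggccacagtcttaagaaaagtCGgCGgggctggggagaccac
Cyp27a1: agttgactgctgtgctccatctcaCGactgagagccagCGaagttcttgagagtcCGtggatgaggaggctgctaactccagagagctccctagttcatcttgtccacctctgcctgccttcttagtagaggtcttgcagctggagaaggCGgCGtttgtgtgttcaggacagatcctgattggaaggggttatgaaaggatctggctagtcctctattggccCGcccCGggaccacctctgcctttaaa
Abca1: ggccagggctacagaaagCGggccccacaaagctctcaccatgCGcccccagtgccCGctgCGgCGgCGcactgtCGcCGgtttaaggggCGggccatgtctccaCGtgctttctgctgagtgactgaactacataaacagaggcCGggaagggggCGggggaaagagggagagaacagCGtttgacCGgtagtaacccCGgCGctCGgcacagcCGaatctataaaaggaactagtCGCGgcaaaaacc
The Ch25h window held 8 CpG and the Cyp27a1 window 7, against 20 for Abca1. Among 32851 promoter windows of 27025 genes the median was 6 CpG, so the members with the largest differences in either direction were close to it and to each other. The windows of Nr1h2 and Mylip held 13 and 23 CpG, those of Apoe (3 start sites) 8 to 10, and those of Nr1h3 (2 start sites) 7 to 8. Of the 9 members, 7 had an entry, and Cyp7b1 and Abcg1 had none. Motifs were searched on both strands. GGGCGG, the core of the GC box, was found for Cyp27a1, Abca1 and Mylip and in 32.7% of all windows. TATAAA, the sequence of the TATA box, was found for Ch25h, Abca1, Mylip and 1 start site of Apoe, and in 12.4% of all windows. It was accepted at any position, also far from the start site, so a match is not by itself a TATA box. The DR4 repeat, the type of element that LXRs bind, was found in none of the 10 member windows and in 0.244% of all windows.

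Total counts were 19041133 to 19823369 reads per library, and 14246 genes passed the filter on low counts. At 3 counts, the limit set by a count of 0 was 0.150 to 0.159 CPM (TMM-scaled reads relative to library size), for counting error only. All 9 markers fixed for cardiosphere and epicardial cells passed the filter. In the test of induced against control cells 6 were higher (Upk3b, 71.3 to 266.5 FPKM, Tcf21, 6.05 to 17.1 FPKM, Wt1, 3.14 to 8.01 FPKM, Gata4, Thy1 and Eng) and 3 lower (Hand2, 12.3 to 7.77 FPKM, Ly6a and Tbx18). The summed level of the 9 was 1065 to 1074 CPM in control and 1876 to 2041 CPM in induced libraries, and its part in the values of the members was not tested. The study describes primary epicardium-derived cardiosphere cells as lacking Wt1 and Tcf21, from RNA and immunostaining beside primary epicardial cells. Both genes had reads in control and induced libraries here, which come from the immortalized line and not from primary cells. Of 5 markers that epicardium-derived cardiosphere cells should lack, Ptprc and Isl1 had no read. The summed level of the 5 was 0.306 to 0.811 CPM in control and 0.421 to 0.850 CPM in induced libraries. In the test of induced against control cells (edgeR's quasi-likelihood test, Benjamini-Hochberg adjusted p under 0.05), 64.8% of tested genes were called, 32.6% higher and 32.2% lower in induced cells, and the groups did not overlap for 68.6%. The median log2 difference of all tested genes was -0.01.

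Of the 9 members, 8 passed the filter and Abcg1 did not. By the same threshold 7 of the 8 were called, against 64.8% of all tested genes: Cyp27a1, Apoe, Mylip and Nr1h2 higher (4 members; 32.6% of all genes) and Ch25h, Cyp7b1 and Abca1 lower (3 members; 32.2% of all genes). The groups did not overlap for the same number, 7, against 68.6% of all genes. Since the members were chosen on this contrast, nothing is read from these shares. The median log2 difference of the 8 was 0.28.

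Levels of different genes were compared as FPKM, which corrects for gene length. In control cells Apoe had the highest FPKM of the members, followed by Ch25h, Abca1, Nr1h2 and Cyp7b1, whose ranges over 3 libraries did not touch. Cyp27a1, Nr1h3 and Mylip followed at about the same FPKM, each overlapping its neighbour in the order, and Abcg1 came last. In induced cells Apoe was again at the top and Cyp27a1 took the second place. Abca1 and Nr1h2 came next with overlapping ranges, then Ch25h, then Cyp7b1 and Mylip with overlapping ranges, then Nr1h3 and Abcg1. The plot of levels by library shows this exchange of places between Ch25h and Cyp27a1.

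**Figure D1:**
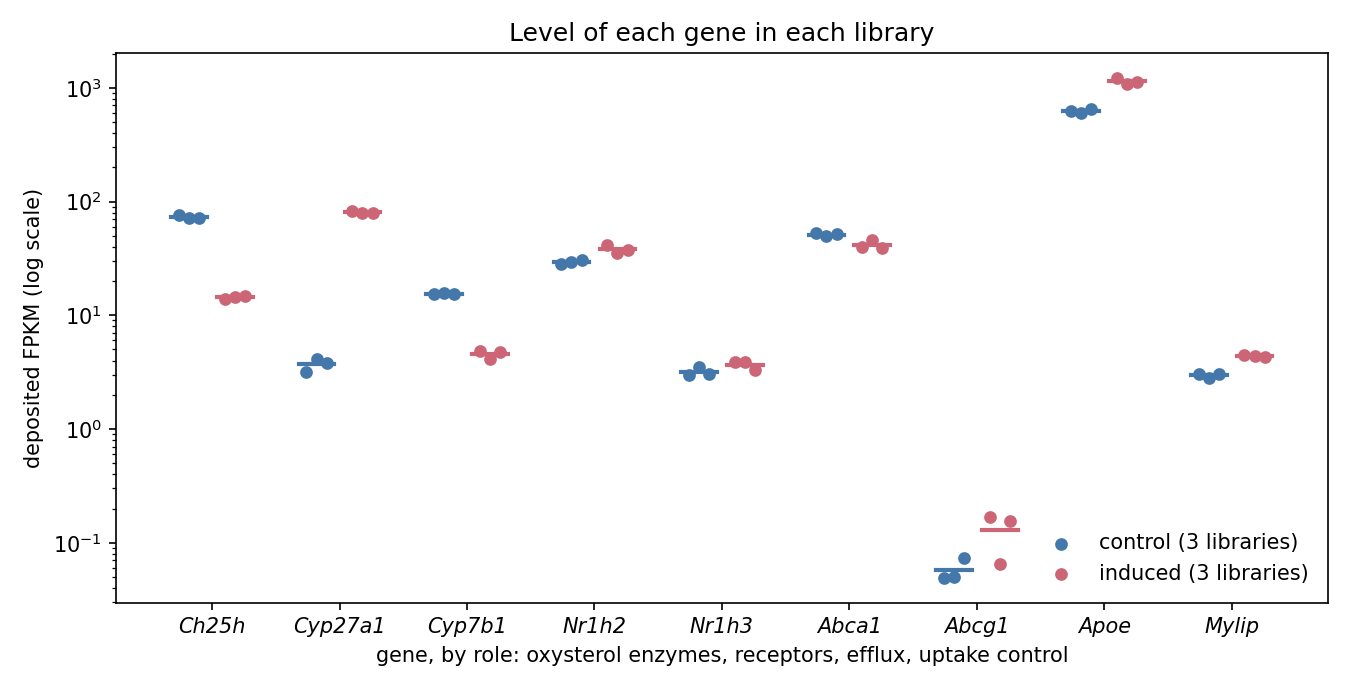
Deposited FPKM (log axis) of the 9 genes in each of 3 control (blue) and 3 induced (red) libraries, with a line at each group mean. The means are 73.4 and 14.3 FPKM for Ch25h and 3.70 and 80.8 FPKM for Cyp27a1, Apoe was highest in both groups, and Nr1h3 and Abcg1 overlapped between groups.

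Ch25h, the cholesterol 25-hydroxylase, a membrane enzyme encoded by a single exon, was high in control cells. Its FPKM was 76.6, 71.7 and 72.0 in the control libraries and 13.8, 14.6 and 14.6 in the induced libraries. Every control library lay far above every induced library. The means were 73.4 ± 2.73 and 14.3 ± 0.453 FPKM (SD, n = 3 each), a fitted log2 difference of -2.37 (SE 0.06), or 5.16-fold higher in control cells. By mean FPKM Ch25h went from place 665 among the tested genes to place 3637. The gene (ENSMUSG00000050370) lies on the minus strand at chr19:34473786-34475135, in the coordinates of the deposited table. Of the 1350 bases of that span, 11.8% are shared with Gm26902 on the opposite strand, and since the strand setting of the counting is not given in the sources used here, its count is uncertain to that extent. Gm26902 itself had 1.12 FPKM in control and 0.483 FPKM in induced cells.

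Cyp27a1, the mitochondrial sterol 27-hydroxylase that also starts the acidic route to bile acids, was low in control cells. Its FPKM was 3.17, 4.15 and 3.78 in the control libraries and 83.3, 79.3 and 79.7 in the induced libraries. All induced libraries stood above all control libraries, with 3289 to 3410 reads against 137 to 179. The means were 3.70 ± 0.497 and 80.8 ± 2.23 FPKM, a fitted log2 difference of 4.44 (SE 0.08), or 21.7-fold. Ordered from the largest positive difference, it took place 159 of the 14246 tested genes. By mean FPKM the gene went from place 8156 to place 640. The gene (ENSMUSG00000026170) lies on the plus strand at chr1:74713574-74737892, and none of its exon bases are shared with another gene.

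Cyp7b1, the oxysterol 7-alpha-hydroxylase that acts on the products of both other enzymes, was lower in induced cells, like Ch25h. Its FPKM was 15.4, 15.5 and 15.3 in the control libraries and 4.85, 4.11 and 4.76 in the induced libraries. The groups did not overlap, and the control libraries lay close together. The means were 15.4 ± 0.0998 and 4.58 ± 0.404 FPKM, a fitted log2 difference of -1.76 (SE 0.08), or 3.40-fold higher in control cells. The gene (ENSMUSG00000039519) lies on the minus strand at chr3:18071950-18243338.

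The ratio of the side-chain hydroxylases was computed within each library. FPKM of Ch25h was 24.2, 17.3 and 19.1 times that of Cyp27a1 in the control libraries. In the induced libraries this ratio was 0.166, 0.184 and 0.184. The more abundant transcript was thus Ch25h in each control library and Cyp27a1 in each induced library, where Cyp27a1 had 5.64 ± 0.339 times the FPKM of Ch25h. FPKM of Cyp27a1 relative to Cyp7b1 went from 0.239 ± 0.0316 to 17.7 ± 1.37. Ch25h and Cyp7b1, which were both lower in induced cells, kept a closer ratio, 4.76 ± 0.180 in control and 3.15 ± 0.354 in induced libraries.

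**Figure D2:**
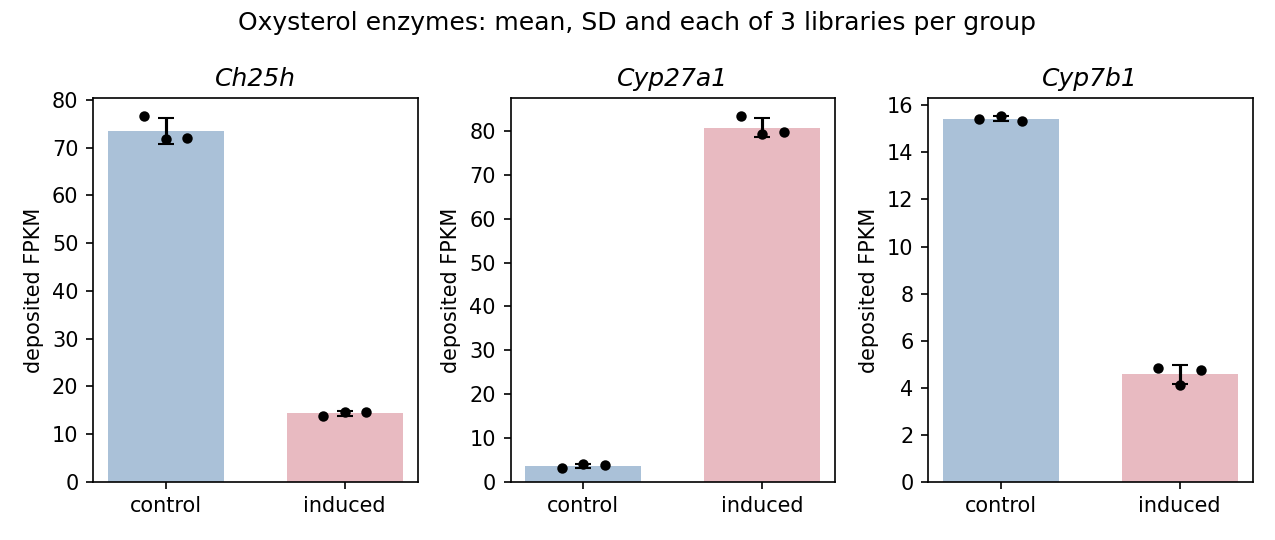
Deposited FPKM (linear axes from 0, 1 scale per gene) of Ch25h, Cyp27a1 and Cyp7b1. Bars are means, error bars SD and points the 3 libraries of each group, and in each gene the control points and the induced points lie on separate levels (Ch25h 73.4 and 14.3, Cyp27a1 3.70 and 80.8, Cyp7b1 15.4 and 4.58 FPKM).

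The receptors differed less than the enzymes. Nr1h2, which encodes LXR-beta, the form present in most tissues, had 28.5, 29.3 and 30.4 FPKM in the control libraries and 41.4, 35.5 and 37.8 FPKM in the induced libraries. All induced libraries were above all control libraries, with a wider spread among them (38.2 ± 2.98 against 29.4 ± 0.985 FPKM). The fitted log2 difference was 0.37 (SE 0.06), or 1.29-fold. The gene (ENSMUSG00000060601) lies on the minus strand at chr7:44549616-44553951.

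Nr1h3 encodes LXR-alpha, the form known from liver, fat and macrophages. It had 2.95, 3.50 and 3.06 FPKM in the control libraries and 3.84, 3.86 and 3.31 FPKM in the induced libraries. The groups overlapped, since control replicate 2 was above induced replicate 3. The fitted log2 difference was 0.20 (SE 0.12), and Nr1h3 was the tested member that was not called. FPKM of Nr1h2 was 9.31 ± 0.831 times that of Nr1h3 in control and 10.5 ± 1.15 times in induced libraries, ranges that overlapped. Nr1h3 (ENSMUSG00000002108, minus strand, chr2:91184061-91202834) shares 1.35% of its exon bases with Gm13783 on the same strand.

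The efflux genes did not share a direction. Abca1, the transporter that passes cholesterol to lipid-poor apolipoproteins, had 52.7, 49.5 and 51.6 FPKM in the control libraries and 40.1, 46.1 and 38.7 FPKM in the induced libraries. The induced libraries were all lower, by a small margin for induced replicate 2. The means were 51.3 ± 1.61 and 41.6 ± 3.93 FPKM, a fitted log2 difference of -0.31 (SE 0.06). Abca1 (ENSMUSG00000015243) lies on the minus strand at chr4:53030787-53159895.

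Abcg1, the transporter that passes cholesterol to mature lipoprotein particles, was near the limit of detection. It had 4, 4 and 6 reads in the control libraries and 13, 5 and 12 reads in the induced libraries. The groups overlapped, with 1 induced library between the control values. The pooled 14 and 30 reads gave an induced over control ratio of 2.23, with an exact 95% interval for counting error of 1.15 to 4.56 that leaves out the spread between libraries. In FPKM the gene stayed at or under 0.170 in every library, against 38.7 FPKM or more for Abca1. Abcg1 (ENSMUSG00000024030) lies on the plus strand at chr17:31057698-31115777.

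Apoe, the apolipoprotein that accepts exported cholesterol and carries it to lipoprotein receptors, was among the most abundant transcripts. It had 626.6, 600.8 and 654.3 FPKM in the control libraries and 1219, 1080 and 1128 FPKM in the induced libraries. All induced libraries were above all control libraries. The means were 627.2 ± 26.7 and 1143 ± 70.3 FPKM, a fitted log2 difference of 0.85 (SE 0.05), or 1.81-fold. Its place by mean FPKM went from 64 to 18, and its share of all reads from 0.137% to 0.241%. The FPKM ratio of Apoe to Abca1 went from 12.2 ± 0.396 to 27.7 ± 3.71. In a bulk sample, fewer or more cells that make a transcript cannot be told apart from less or more of it per cell. Apoe (ENSMUSG00000002985) lies on the minus strand at chr7:19696109-19699188.

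Mylip, the ubiquitin ligase also called IDOL, had 3.06, 2.80 and 3.05 FPKM in the control libraries and 4.45, 4.39 and 4.31 FPKM in the induced libraries. The groups did not overlap. The means were 2.97 ± 0.143 and 4.38 ± 0.0723 FPKM, a fitted log2 difference of 0.55 (SE 0.10), or 1.46-fold. Mylip (ENSMUSG00000038175) lies on the plus strand at chr13:45389742-45412022.

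The other genes of the pathway were taken from 7 lists that leave out the members. For them the adjusted p comes from the edgeR fit over all 14246 genes (Benjamini-Hochberg). The share called in each list stands beside 64.8% for all tested genes, and the lists were not tested as groups.

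Substrates of Mylip did not share a direction. Vldlr, a receptor for triglyceride-rich particles, rose from 5.20 to 11.4 FPKM (log2 difference 1.12, SE 0.06, adjusted p = 8.22e-12). Lrp8, a receptor for Apoe and reelin, fell from 1.72 to 0.747 FPKM (log2 difference -1.22, SE 0.11, adjusted p = 9.29e-09). Mylip acts on the proteins, which were not measured here.

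Among lipoprotein receptors and their regulators, all 11 tested genes of 13 were called, 7 higher and 4 lower, with a median log2 difference of 0.50. Lrp1, a large endocytic receptor for Apoe-bearing particles, was the most abundant and rose from 86.1 to 118.6 FPKM (log2 0.45, adjusted p = 2.23e-08). Its chaperone Lrpap1 rose by 0.82 on the log2 scale (adjusted p = 4.86e-11). Scarb1, the receptor that exchanges cholesterol with high-density lipoprotein, fell from 19.7 to 8.21 FPKM (log2 -1.28, adjusted p = 2.76e-13).

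Of 21 further enzymes and cofactors of oxysterol and bile acid metabolism, 13 were tested, of which 7 were higher, 2 lower and 4 not called (69.2% called, median log2 difference 0.19). This median was 0.45, 0.47 and 0.51 without control replicate 1, 2 or 3 and 0.54 without induced replicate 2, where the filter kept 14 genes of the list. Without induced replicate 1 or 3, where it kept 13, the median was 0.21. The genes with the smallest p-values were all higher in induced cells. Star, which brings cholesterol to the inner mitochondrial membrane, where Cyp27a1 also resides, was at 0.452, 0.331 and 0.411 FPKM in control and 2.94, 3.93 and 3.51 FPKM in induced libraries (log2 3.11, SE 0.16, adjusted p = 8.68e-12). Hsd11b1, a steroid dehydrogenase that also acts on 7-ketocholesterol, rose by 2.11 on the log2 scale (SE 0.13, adjusted p = 7.57e-11). Akr1c14, a hydroxysteroid dehydrogenase, rose by 1.95 (SE 0.08, adjusted p = 2.04e-13), although 7.22% of its exon bases are shared with Gm18857. Por, which supplies electrons to microsomal cytochromes P450, fell by 0.19 on the log2 scale (adjusted p = 0.00295). The sterol carrier Scp2 was at 40.3 and 37.6 FPKM and was not called (adjusted p = 0.0561).

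Of 13 oxysterol receptors and binding proteins, 12 were tested, 8 higher and 1 lower (75.0% called, median log2 difference 0.30). Osbp, the founding oxysterol-binding protein, rose from 27.2 to 34.6 FPKM (log2 0.34, adjusted p = 1.13e-05). Its relatives Osbpl2 and Osbpl5 rose by 0.60 and 0.55 on the log2 scale (adjusted p = 1.60e-08 and 2.26e-08). Osbpl10 was the gene of this list that fell, from 2.34 to 0.590 FPKM (log2 -2.00, SE 0.15, adjusted p = 1.80e-09). Gpr183, the cell-surface receptor for oxysterols made by Ch25h and Cyp7b1 in succession, had 1 read in each group.

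Of 20 partners and coregulators of the LXRs, 18 were tested, 4 higher, 4 lower and 10 not called (44.4% called, median log2 difference -0.04). Without control replicate 2, 2 were higher and 2 lower. Without induced replicate 2, 2 were higher and 5 lower, and without induced replicate 3, 4 were higher and 2 lower. The median was -0.07 to -0.03 without each library in turn. Rxra, a retinoid X receptor that pairs with the LXRs, rose from 28.7 to 37.2 FPKM (log2 0.36, adjusted p = 1.94e-06). Rxrb was at 19.8 and 17.9 FPKM (log2 -0.15, adjusted p = 0.0385), and this call was lost in 9 of 14 alternative analyses, where the adjusted p ran from 0.00952 to 0.177. Rxrg had no read in any library. Tbl1xr1, a component of the corepressor complex, fell by 0.42 on the log2 scale (adjusted p = 6.74e-06), and Med1, a Mediator subunit that nuclear receptors bind, fell by 0.31 (adjusted p = 0.000148). Tbl1x was at 26.6 and 30.1 FPKM (adjusted p = 0.0109, and 0.0639 without control replicate 2).

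Of 19 other textbook LXR targets, 14 were tested, 6 higher and 5 lower (78.6% called, median log2 difference 0.10). This median was 0.02 without control replicate 1, 0.20 without control replicate 2, 0.16 without induced replicate 1 and 0.00 without induced replicate 2, so it gives no steady direction. Like the efflux members, they did not share a direction. Pltp, the phospholipid transfer protein, was at 17.3, 16.6 and 18.9 FPKM in control and 47.5, 46.6 and 41.4 FPKM in induced libraries (log2 1.35, SE 0.07, adjusted p = 2.36e-12), with 19.3% of its exon bases shared with Ctsa on the opposite strand. Lpl, the lipoprotein lipase, rose from 27.3 to 66.2 FPKM (log2 1.26, adjusted p = 1.67e-13). Smpdl3a, a phosphodiesterase, rose from 2.79 to 9.06 FPKM (log2 1.69, adjusted p = 1.03e-10). Scd2, a fatty acid desaturase and the most abundant of the list, was at 207.9 and 204.4 FPKM and was not called (log2 -0.04, adjusted p = 0.495).

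Of 21 genes of cholesterol export, storage and trafficking, 16 were tested, 8 higher and 5 lower (81.2% called, median log2 difference 0.28). The lower genes were 3 without control replicate 2, control replicate 3 or induced replicate 1. Lcat, which esterifies cholesterol on lipoproteins, rose from 51 to 570 pooled reads (log2 3.53, SE 0.18, adjusted p = 6.83e-12). Gramd1b, which moves plasma membrane cholesterol to the endoplasmic reticulum, and Npc2, which hands it out of lysosomes, rose by 1.01 and 0.59 on the log2 scale (adjusted p = 1.38e-10 and 1.57e-08). Clu, another secreted apolipoprotein, fell from 718.0 to 256.1 FPKM (log2 -1.50, SE 0.04, adjusted p = 6.54e-16). In control cells Clu had a higher mean FPKM than Apoe, and in induced cells the order was the opposite.

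Of the 26 genes of the SREBP pathway and cholesterol synthesis, all were tested, 7 higher and 17 lower (92.3% called, median log2 difference -0.27). Mvd and Sqle, enzymes of the synthesis route, fell from 25.7 to 15.1 FPKM and from 39.3 to 24.1 FPKM, while the late enzyme Sc5d rose from 28.9 to 45.2 FPKM (adjusted p = 7.15e-09, 2.87e-10 and 1.63e-09). Srebf2, the transcription factor of the pathway, was at 54.0 and 49.6 FPKM (log2 -0.14, adjusted p = 0.0114), a call lost without control replicate 3 or induced replicate 3 (adjusted p up to 0.0574). Insig1, which retains SREBP precursors in the endoplasmic reticulum, rose by 0.35 on the log2 scale (adjusted p = 7.23e-06). Sqle and Srebf2 lie on chromosome 15, where the median log2 difference of 561 tested genes was -0.24, and the part of that shift in their values was not tested.

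**Figure D3:**
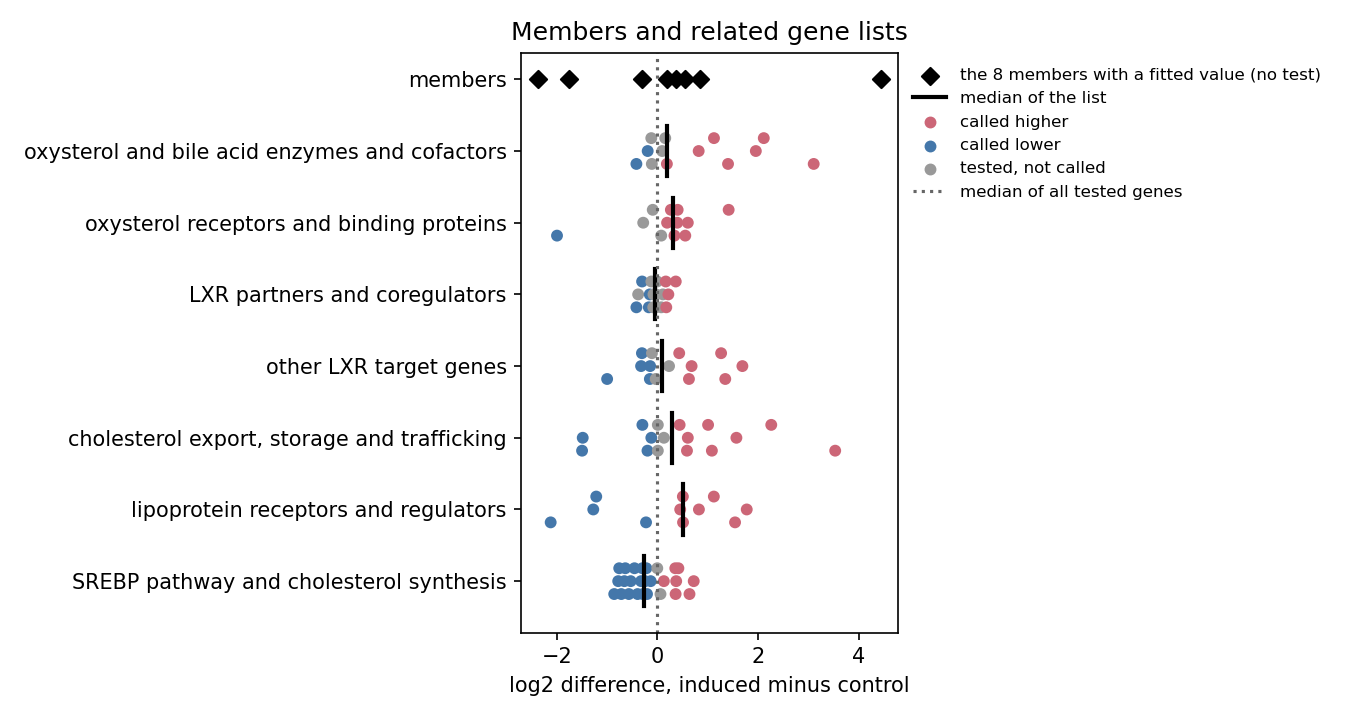
Fitted log2 difference (induced minus control, horizontal axis) of the 8 tested members (black diamonds, no test) and of each tested gene of 7 related lists, coloured by its edgeR call. Black bars mark list medians, from -0.27 (SREBP pathway and cholesterol synthesis) to 0.50 (lipoprotein receptors), and the dotted line marks -0.01, the median of all tested genes.

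Macrophages express several members strongly, so 15 of their markers were read in the same libraries. Of the 15, 7 had no read in any library (Ptprc, Adgre1, Itgam, Tyrobp, C1qa, C1qb and C1qc), and 5 passed the filter. Cd68, a lysosomal protein, rose from 1.54 to 23.2 FPKM (adjusted p = 7.41e-15) and Lyz2 from 2.83 to 11.1 FPKM (adjusted p = 4.20e-10). Csf1r fell from 4.58 to 2.22 FPKM (adjusted p = 6.30e-09), Cd14 was at 28.2 and 25.8 FPKM and was not called, and Fcer1g had 2 pooled reads in control and 187 in induced cells. The summed level of the list was 70.2 to 78.4 CPM in control and 93.0 to 102.9 CPM in induced libraries, and its part in the values of the members was not tested. Of 7 adipocyte markers, Cfd had no read and only Plin4 passed the filter (log2 0.84, adjusted p = 0.00263), with a summed level of the list of 1.68 to 2.40 CPM in control and 3.88 to 4.31 CPM in induced libraries.

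Genes with the pattern most like Cyp27a1 and Apoe over the 6 libraries were found by the root mean square difference of their log2 levels after centring. For Cyp27a1 these were Klhl30 (0.129), Grhl2 (0.130, listed at 0 in control libraries) and Perp (0.144). Grhl2 reached only 0.261 FPKM in induced cells, and its fitted log2 difference was 8.45 against 4.44 for Cyp27a1. Its likeness thus depends on the prior count of 2. For Apoe they were Ephx1 (0.0273), which encodes a microsomal epoxide hydrolase, Fam234a (0.0371) and Plod1 (0.0403).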

How the data were processed

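RNA sequencing libraries were made from total RNA with the NEBNext Ultra kit. The deposited table holds, for each gene, the read counts of each library as the authors obtained them, without normalization, and FPKM values that the authors computed from them (count divided by gene length and by a depth of 0.980 to 1.03 times the total count). The submitters' processing notes name HISAT2 2.0.5, featureCounts 1.5.0-p3, DESeq2 1.16.1 and mm10, and the strand setting is not given in the sources used here. The authors' group means, fold changes, p-values and Gene Ontology tables were not used.

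The count analysis used edgeR 4.0.16 under R 4.3.3: filterByExpr (minimum count 10, total 15), which kept 99.9% of reads, TMM scaling, and the two-sided quasi-likelihood test with Benjamini-Hochberg adjustment at 0.05 over 14246 genes. Overlap between groups was read from TMM-scaled CPM. Fitted differences used a prior count of 0.125. Coordinates are those of the table, and 98.3% of its genes found in GENCODE M21 (GRCm38) had the same ones, as did 7 of the 9 members. Ch25h and Abcg1 had shorter models in the table (1350 and 4066 bases) than in GENCODE M21 (1387 and 7298 exon bases). Shares of exon bases are of GENCODE M21 models, except for Ch25h, where the span in the table was used. Counts were also simulated over the 14246 genes, with the same dispersion for every gene. Only 80, 58 and 62 genes were changed, by 0.5, 1 and 2 on the log2 scale. The test recovered 80.0%, 91.4% and 98.4% of these, and 5.82% of its calls were false. In the data 64.8% of genes were called, so these rates need not hold there.

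Pairs of libraries within a group differed by more than sampling noise (chi-square per degree of freedom 2.56 to 8.91) and were kept as 3 replicates. Reads carried no molecular identifiers and are not independent molecules, so intervals and limits describe counting error alone. The members and lists were chosen with earlier results of these data known. Named genes were the 9 members, per list the 3 genes with the smallest p and the 2 with the highest mean FPKM, the substrates of Mylip, the RXR genes, Gpr183, the markers at 0 reads, and the 3 genes most like Cyp27a1 (largest difference) and Apoe (highest FPKM). Genes named outside it (other markers, overlapping genes and genes near members) were chosen after their values were seen. The result of 1 gene that the rule names is not reported here. Likeness of patterns used log2 CPM with a prior count of 2. Alternatives were DESeq2 1.42.0, other scalings and filters, a threshold of 0.01 on the adjusted p, each library left out in turn, the replicate number as a block, and limma 3.58.1 on log2(FPKM + 1) and log2(FPKM + 0.1).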

Additional observations from a re-analysis of the deposited data

How the results depend on the processing

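The number of genes called, 9225, was 7783 to 9765 under the alternatives and 8514 to 9348 without each replicate in turn. Replicate numbers did not pair the samples, since the deviations of same-numbered libraries correlated at -0.00, -0.02 and 0.03, and a fit with the replicate block called 9063 genes. Among LXR partners and coregulators 8 genes were called, against 5 with limma on log2(FPKM + 1), 5 with limma on log2(FPKM + 0.1), 3 at an adjusted p of 0.01, and 4 to 8 without each replicate in turn (4 without control replicate 2). In the other 6 lists the total of calls stayed within 1.5 times its number, but the lower genes of oxysterol and bile acid enzymes went from 2 to 4 with library totals alone, and those of export, storage and trafficking from 5 to 3 with DESeq2, limma on log2(FPKM + 1) or an adjusted p of 0.01. List medians also moved: with no filter they were 0.51 for oxysterol and bile acid enzymes, 0.34 for other LXR targets and 0.59 for export, storage and trafficking, and on log2(FPKM + 1) 0.19 for oxysterol receptors, 0.02 for other LXR targets and 0.13 for export, storage and trafficking. The stricter filter gave 0.44 for export, storage and trafficking, and library totals alone gave 0.06 for other LXR targets and -0.08 for LXR partners, whose median was -0.03 with no filter and on log2(FPKM + 1). The 9 members kept their sign in all 121 alternative values. On log2(FPKM + 1), a scale that understates low genes, the differences of Cyp27a1 (4.13), Ch25h (-2.28), Cyp7b1 (-1.56) and Mylip (0.44) moved by more than the spread between replicates. Of 33 tested genes named from the lists, 4 (Rxrb, Tbl1x, Srebf2 and Scp2) had a call that changed under an alternative. Depth limits Abcg1, with 4 to 13 reads per library, to a statement of its low level.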

Other observations

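Genes within 100 kb of a member were read after the values of the members were seen. By edgeR's quasi-likelihood test, 4 of 5 tested neighbours of Cyp27a1 rose in induced cells, against 32.6% of all tested genes. A gene near the detection limit in control cells passes the filter only through the induced libraries, where it is higher. Nothing is therefore read from this share. Prkag3, a subunit of AMP-activated kinase that lies 1.03 kb away, had 0.204 FPKM in control and 0.781 FPKM in induced cells (log2 1.92, SE 0.31, adjusted p = 2.39e-05). The Wnt ligand genes Wnt6 and Wnt10a rose by 2.78 and 4.57 on the log2 scale (adjusted p = 2.17e-06 and 2.65e-05). Both started from low levels in control cells (0.168 and 0.0136 FPKM), and Wnt10a reached 0.384 FPKM in induced cells. Ttll4 rose by 0.41 (adjusted p = 1.27e-05), and Stk36 was not called (log2 -0.24, adjusted p = 0.144). Bhlhe22, a transcription factor gene and the only tested neighbour of Cyp7b1, fell from 1.51 to 0.173 FPKM (log2 -3.12, SE 0.25, adjusted p = 2.68e-09).

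Around Ch25h, 2 of 3 tested neighbours were higher and 1 lower. Gm26902, which overlaps it, had 1.12 and 0.483 FPKM and fell (log2 -1.22, adjusted p = 0.000377). Since the strand setting is not given, its count is uncertain too. The part of reads from the more abundant Ch25h in that fall was not tested. The lysosomal lipase gene Lipa at 17.2 kb rose from 37.5 to 57.4 FPKM (log2 0.60, adjusted p = 5.15e-09) and Ifit2 at 75.6 kb rose by 0.88 on the log2 scale (adjusted p = 9.02e-09). Around Apoe, of 7 tested neighbours 2 were higher and 3 lower. Tomm40, at 2.13 kb, fell by 0.34 on the log2 scale (adjusted p = 2.61e-05), and the apolipoprotein gene Apoc1, at 3.45 kb, had 2.02 and 1.01 FPKM (adjusted p = 0.0112). Around Nr1h2, 1 of 6 tested neighbours was higher and 2 lower, among them Pold1 at 0.767 kb (log2 -1.21, adjusted p = 2.71e-10), and around Nr1h3, 2 of 6 were higher and 1 lower. The only tested neighbour of Mylip was higher, that of Abca1 was not called, and Abcg1 had none.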
